A study of Homo sapiens with 2 samples.

Results

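Homologous recombination and the Fanconi anemia pathway were followed through 35 genes, listed by name for their place in these pathways. A gene belonged to the group when its symbol in the deposited table equalled a listed name, and all 35 were found among the 21115 genes measured. Transcripts were counted by sequencing polyadenylated RNA of HCT116 cells, a human colon carcinoma line. The cells had received either CB-5083 at 1 µM for 8 h or DMSO, its solvent. CB-5083 inhibits p97 (gene VCP), an ATPase that unfolds ubiquitinated proteins and draws them out of membranes, complexes and chromatin. Each treatment had 1 library of 1 cell line at 1 time, so no value below has a replicate check and no test between treatments was possible.

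Homologous recombination repairs a broken chromosome by copying the intact sister, and it works in cells that have replicated their DNA. Kinases and ubiquitin ligases mark the break, nucleases and helicases cut its ends back to single strands, and BRCA proteins prepare those strands for the search for the matching sequence. The Fanconi pathway handles crosslinks that tie both strands together: a core complex of ubiquitin ligase subunits attaches ubiquitin to FANCD2 and FANCI, and recombination then completes the repair. The p97 ATPase is known to remove ubiquitinated proteins from chromatin around breaks, downstream of the ligase RNF8.

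The CB-5083 library held 31997748 estimated counts and the DMSO library 29273756, with 16729 and 17310 genes above 0. Values are given as CPM, counts relative to the library's total, scaled between the libraries with TMM factors. Of 8 colon epithelium markers, 5 reached 5 CPM in at least 1 library, the lowest of them KRT19 at 67.4 CPM with CB-5083 and 47.2 CPM with DMSO. The other 3 stayed below that level: CDX2 was at 2.92 CPM with CB-5083 and 3.76 CPM with DMSO, CDH17 at 0.176 CPM with CB-5083 and 0.140 CPM with DMSO, and VIL1 was listed at 0 with CB-5083 and at 0.0303 CPM with DMSO. Markers of blood, endothelium and liver were at or below 0.121 CPM in both libraries. Of the fibroblast markers, COL1A1 was at 3.48 CPM with CB-5083 and 2.52 CPM with DMSO, and COL3A1 was at 0.141 CPM with CB-5083 and listed at 0 with DMSO. The 5 epithelial markers over 5 CPM were all higher with CB-5083, with a median log2 ratio of 0.50 and CDH1 at 243 CPM with CB-5083 and 66.7 CPM with DMSO, and their part in the values below was not tested.

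Most of the 35 genes had similar levels in both libraries. These are levels in bulk RNA, where fewer cells in a given state and less RNA per cell cannot be told apart. All of them reached 5 CPM in at least 1 library, RAD51B only in the CB-5083 library. The log2 ratio, taken as CB-5083 over DMSO after adding 1 CPM to each, ran between -0.82 for FANCL and 0.80 for MRE11A. No gene was 2-fold higher and none was 2-fold lower with CB-5083, where 7.22% and 4.91% of the 9543 genes at this level were. At 1.5-fold, 2 genes were higher, MRE11A and WRN, which is 5.71% of the 35 against 17.4% of all genes. Likewise 2 genes were lower at 1.5-fold, FANCL and FANCM, against 12.5% of all genes. The remaining 31 (88.6%) lay within 1.5-fold, as did 70.1% of all genes. The median log2 ratio of the 35 genes was 0.00 and that of all genes 0.09, with interquartile ranges of 0.53 and 0.71. These counts depend on the scaling. With library totals in place of TMM, the median of all genes was -0.25, 371 genes were 2-fold higher and 994 lower in place of 689 and 469, and 9 of the 35 genes changed sign. On that scale 0 of the 35 genes were 1.5-fold higher, against 8.34% of all genes, and 6 (17.1%) were 1.5-fold lower, against 26%. FANCL and FANCM were then 2-fold lower, 5.71% of the 35 against 10.3% of all genes. With the upper quartile as deposited, 584 of all genes were 2-fold higher and 584 lower.

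**Figure D1:**
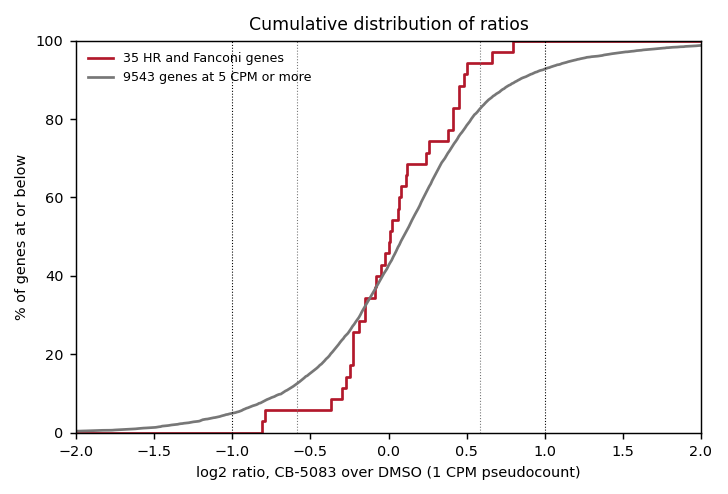
Share of genes (vertical axis, %) at or below each log2 ratio of CB-5083 over DMSO (horizontal axis), for the 35 genes and for the 9543 genes that reached 5 CPM in at least 1 library. Dotted lines mark 1.5-fold and 2-fold; the curve of the 35 genes starts at -0.82, ends at 0.80 and is the steeper of the pair between the 1.5-fold lines.

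**Figure D2:**
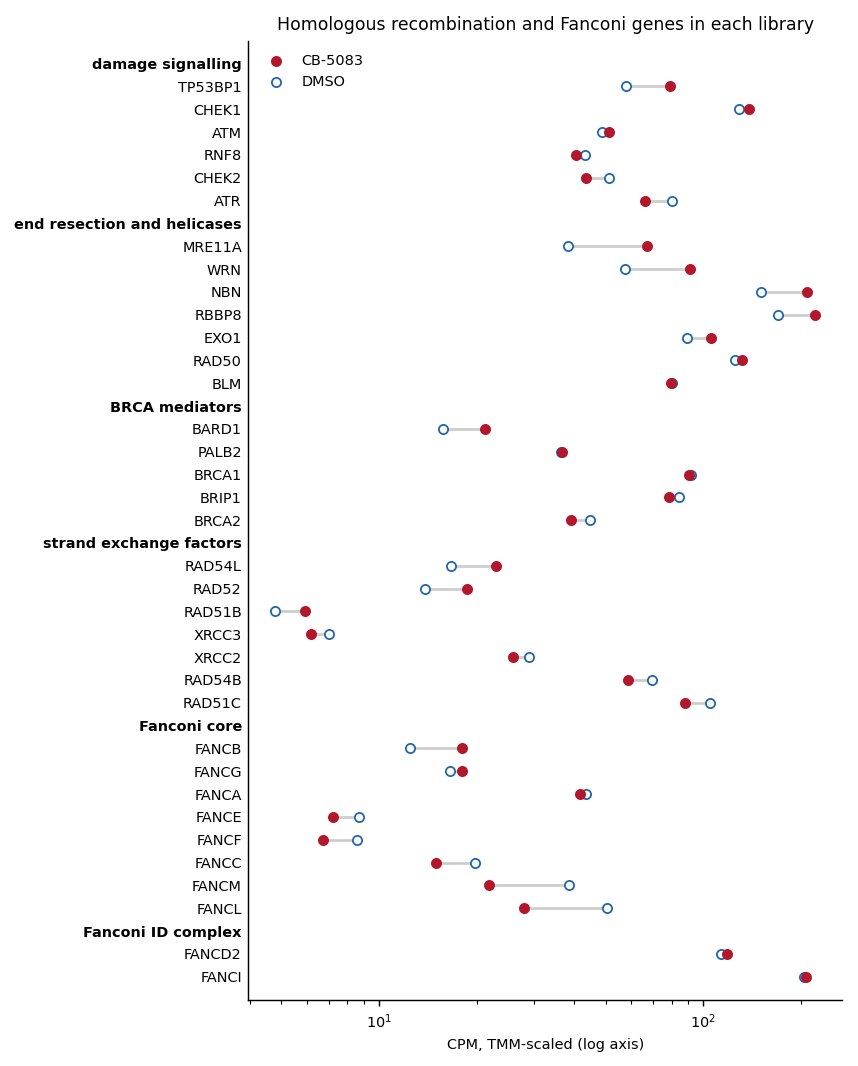
Level of each of the 35 genes in the CB-5083 library (filled points) and in the DMSO library (open points), in TMM-scaled CPM on a log axis, ordered by role and then by ratio. The widest gaps belong to MRE11A and WRN, higher with CB-5083, and to FANCL and FANCM, lower with CB-5083.

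Counting error alone was smaller than many of these differences. Each fold, computed without the added CPM, was given an exact 95% Clopper-Pearson interval on its estimated counts, which covers counting error only and not the spread between cultures. It also takes the TMM factors as given. The values of 33 of the 35 genes fell outside their intervals with library totals, of 14 with the upper quartile and of 0 with median of ratios. With TMM the interval lay above 1 for 12 genes (34.3%) and below 1 for 12 (34.3%), and held 1 for the other 11. Among all genes the interval lay above 1 for 47.9% and below 1 for 32.8%. Per kilobase of transcript, RBBP8 had the highest level of the 35 in the CB-5083 library, at 67.4 CPM per kb, against 51.8 CPM per kb with DMSO. RAD51C was the highest in the DMSO library, at 55.6 CPM per kb with CB-5083 and 66.5 CPM per kb with DMSO. FANCF was lowest with CB-5083 at 2.28 CPM per kb, against 2.91 CPM per kb with DMSO. XRCC3, the lowest with DMSO, stood at 2.41 CPM per kb with CB-5083 and 2.72 CPM per kb with DMSO.

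The stretches before the starts of MRE11A, FANCL and FANCM are shown because these are genes past 1.5-fold with a promoter entry in RefSeq. Each line gives the 250 bases before the annotated start, 5′ to 3′ on the gene's own strand, from RefSeq on GRCh38.p14. MRE11A (now MRE11) is at chr11:94493845-94494094 on the minus strand, FANCL at chr2:58241326-58241575 on the minus strand and FANCM at chr14:45135680-45135929 on the plus strand. Capitals mark CCAAT, its reverse complement ATTGG, or the E2F-type core TTCCCGC. These letters describe the windows and say nothing of which factors bind there.
MRE11A: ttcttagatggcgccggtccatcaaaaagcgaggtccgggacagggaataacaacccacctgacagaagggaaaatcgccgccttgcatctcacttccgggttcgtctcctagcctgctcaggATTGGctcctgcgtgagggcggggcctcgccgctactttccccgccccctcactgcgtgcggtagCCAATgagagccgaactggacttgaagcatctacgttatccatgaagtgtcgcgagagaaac
FANCL: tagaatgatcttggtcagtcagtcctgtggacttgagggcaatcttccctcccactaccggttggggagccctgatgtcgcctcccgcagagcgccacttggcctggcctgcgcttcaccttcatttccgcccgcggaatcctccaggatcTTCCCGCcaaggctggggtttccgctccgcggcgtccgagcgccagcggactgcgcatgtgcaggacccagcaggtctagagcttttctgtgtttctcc
FANCM: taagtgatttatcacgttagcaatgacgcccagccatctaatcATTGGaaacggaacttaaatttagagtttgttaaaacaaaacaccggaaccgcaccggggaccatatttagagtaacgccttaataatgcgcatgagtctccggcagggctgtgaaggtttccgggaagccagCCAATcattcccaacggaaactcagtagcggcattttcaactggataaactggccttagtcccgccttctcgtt
MRE11A held CCAAT 62 bases before the start and its reverse complement 127 bases before it. FANCL held neither, but held the core 99 bases before the start. FANCM held CCAAT at 74 bases and its reverse complement at 207 bases before the start.

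The 6 genes of damage signalling had a median log2 ratio of -0.01, and none passed 1.5-fold. TP53BP1, which shields broken ends from resection and favours end joining, had the highest ratio of the group, at 78.8 CPM with CB-5083 and 57.7 CPM with DMSO. It was 1.37-fold higher with CB-5083 (95% counting interval 1.28 to 1.45), a log2 ratio of 0.44. ATR, the kinase that responds to single-stranded DNA at stalled forks, stood at 66.1 CPM with CB-5083 and 80.1 CPM with DMSO. That was 1.21-fold lower (1.14 to 1.29), the lowest ratio of the group at -0.27. The paired effector kinases lay on opposite sides of 1 with TMM, though CHEK1 changed sign with library totals. CHEK1, the target of ATR, was at 139 CPM with CB-5083 and 129 CPM with DMSO, a fold of 1.08 (1.03 to 1.13). CHEK2, the target of ATM, was at 43.5 CPM with CB-5083 and 51.3 CPM with DMSO, 1.18-fold lower (1.1 to 1.27). ATM, the kinase activated at breaks, was at 51.1 CPM with CB-5083 and 48.9 CPM with DMSO, and RNF8, the ubiquitin ligase that marks chromatin beside a break, was at 40.6 CPM with CB-5083 and 43.3 CPM with DMSO. The intervals of ATM (0.974 to 1.12) and RNF8 (0.868 to 1.02) held 1.

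End resection and the RecQ helicases had the highest group median, 0.38 on the log2 scale over 7 genes, and both genes past 1.5-fold higher. That was 28.6% of the 7, against 17.4% of all genes. MRE11A, the nuclease of the MRE11-RAD50-NBN complex that first binds broken ends, was at 67.2 CPM with CB-5083 and 38.2 CPM with DMSO, or 1911 estimated counts with CB-5083 and 1260 with DMSO. It was 1.76-fold higher with CB-5083 (1.64 to 1.89) and its log2 ratio was 0.80. NBN, the subunit that recruits ATM, was at 209 CPM with CB-5083 and 150 CPM with DMSO, 1.39-fold higher (1.34 to 1.45). RAD50, the ATPase that tethers the ends, differed little, at 131 CPM with CB-5083 and 125 CPM with DMSO, a fold of 1.05 (1.01 to 1.1). The 3 transcripts of this complex were all on the higher side with TMM, by unequal amounts, while RAD50 changed sign with library totals and with the upper quartile.

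WRN, a RecQ helicase that also has exonuclease activity, was at 90.8 CPM with CB-5083 and 57.2 CPM with DMSO. It was 1.59-fold higher (1.49 to 1.68) and its log2 ratio was 0.66. BLM, the RecQ helicase that unwinds ends and separates joined duplexes, was level at 79.6 CPM with CB-5083 and 80.1 CPM with DMSO. RBBP8, known as CtIP, starts resection together with MRE11 and was nearest the group's median. It was at 222 CPM with CB-5083 and 170 CPM with DMSO, 1.3-fold higher (1.25 to 1.35). EXO1, the exonuclease of long-range resection, was at 105 CPM with CB-5083 and 89.2 CPM with DMSO, 1.18-fold higher (1.12 to 1.24). Of the 7 intervals, 6 (85.7%) lay above 1, against 47.9% among all genes, and that of BLM held 1. These shares depend on which genes were listed. DNA2, also a nuclease of long-range resection, was placed outside these 7 genes, in the second list described below. It was at 43.6 CPM with CB-5083 and 50.4 CPM with DMSO, 1.16-fold lower (1.07 to 1.25). With library totals the group's median was 0.04, BLM, RAD50 and EXO1 were below 0 at -0.35, -0.27 and -0.10, and the log2 ratios of MRE11A and WRN were 0.46 and 0.32.

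**Figure D3:**
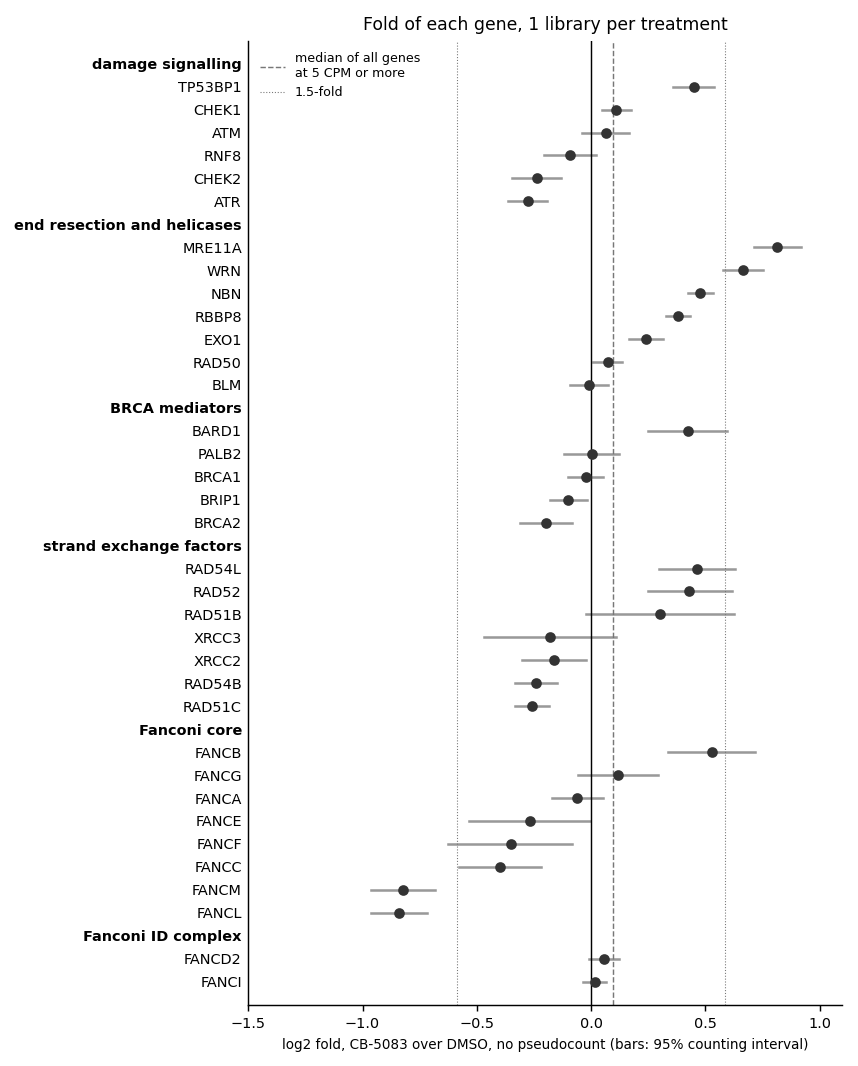
Log2 fold of each of the 35 genes, CB-5083 over DMSO without an added count, by role; points are folds and bars are 95% counting intervals from 1 library per treatment. The dashed line is the median of all genes and dotted lines mark 1.5-fold; MRE11A and WRN lie right of the upper line and FANCL and FANCM left of the lower one.

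The BRCA proteins and their partners showed the smallest spread of the larger groups, with a median log2 ratio of -0.02 over 5 genes and none past 1.5-fold. BRCA1, a ubiquitin ligase subunit that promotes resection and recruits PALB2, was at 90.0 CPM with CB-5083 and 91.5 CPM with DMSO, a fold of 0.984 (0.933 to 1.04). PALB2, the bridge between BRCA1 and BRCA2, was at 36.6 CPM with CB-5083 and 36.5 CPM with DMSO. BRCA2, which acts on the resected single strands, was at 39.1 CPM with CB-5083 and 44.8 CPM with DMSO, 1.15-fold lower (1.06 to 1.24). BRIP1, a helicase that binds BRCA1, was at 78.5 CPM with CB-5083 and 84.2 CPM with DMSO, 1.07-fold lower (1.01 to 1.13). BARD1, the obligate partner of BRCA1, stood apart from it at 21.2 CPM with CB-5083 and 15.8 CPM with DMSO, 1.34-fold higher (1.19 to 1.51).

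RAD51B, RAD51C, XRCC2 and XRCC3 are related proteins that work in 2 complexes before strand exchange, and all but RAD51B were on the lower side. RAD51C, the subunit shared by both complexes, was at 87.8 CPM with CB-5083 and 105 CPM with DMSO, 1.2-fold lower (1.14 to 1.26). XRCC2 was at 25.9 CPM with CB-5083 and 29 CPM with DMSO, 1.12-fold lower (1.01 to 1.23). XRCC3, the partner of RAD51C, was at 6.19 CPM with CB-5083 and 7.01 CPM with DMSO, and its interval held 1. RAD51B, at 5.91 CPM with CB-5083 and 4.79 CPM with DMSO, rested on 168 estimated counts with CB-5083 and 158 with DMSO, and its interval of 0.986 to 1.54 also held 1.

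The strand-annealing protein RAD52 and the motor RAD54L lay on the other side. RAD52 was at 18.7 CPM with CB-5083 and 13.9 CPM with DMSO, 1.35-fold higher (1.19 to 1.53). RAD54L, which drives strand invasion, was at 22.9 CPM with CB-5083 and 16.6 CPM with DMSO, 1.38-fold higher (1.23 to 1.55). Its relative RAD54B went the opposite way, at 58.8 CPM with CB-5083 and 69.5 CPM with DMSO, 1.18-fold lower (1.11 to 1.26). Over these 7 genes the median log2 ratio was -0.16 and none passed 1.5-fold.

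The Fanconi core complex had the lowest group median, -0.27 over 8 genes, and held both genes past 1.5-fold lower. That was 25% of the 8, against 12.5% of all genes. FANCL, the RING subunit that attaches ubiquitin to FANCD2 and FANCI, was at 28.1 CPM with CB-5083 and 50.3 CPM with DMSO, or 799 estimated counts with CB-5083 and 1659 with DMSO. It was 1.79-fold lower with CB-5083 (1.64 to 1.95), with a log2 ratio of -0.82. FANCM, the DNA translocase that anchors the core complex on chromatin, was at 21.8 CPM with CB-5083 and 38.5 CPM with DMSO, or 619 estimated counts with CB-5083 and 1269 with DMSO. It was 1.77-fold lower (1.60 to 1.95), with a log2 ratio of -0.79. Both kept this direction under each of the 4 scalings, and with library totals their log2 ratios were -1.15 and -1.12.

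The other core subunits are known to assemble in smaller modules. FANCC, FANCE and FANCF form one of them, and all 3 intervals lay below 1, as did 32.8% of the intervals of all genes. FANCC was at 15.0 CPM with CB-5083 and 19.7 CPM with DMSO, 1.32-fold lower (1.16 to 1.49), FANCF at 6.73 CPM with CB-5083 and 8.58 CPM with DMSO, 1.28-fold lower (1.06 to 1.54), and FANCE at 7.21 CPM with CB-5083 and 8.68 CPM with DMSO, where the fold of 0.831 had an interval ending at 0.998. FANCA and FANCG, a second module, were level within counting error with TMM, though FANCG changed sign with library totals. FANCA was at 41.6 CPM with CB-5083 and 43.4 CPM with DMSO, and FANCG at 18 CPM with CB-5083 and 16.6 CPM with DMSO. FANCB, which binds FANCL in the catalytic module, was the exception in the core at 18 CPM with CB-5083 and 12.5 CPM with DMSO. It was 1.44-fold higher (1.26 to 1.65), a log2 ratio of 0.49 against -0.82 for FANCL.

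The substrates of the core complex were level with TMM, and below 0 with library totals, where the median of all genes was below 0 too. With the upper quartile their log2 ratios were -0.03 for FANCD2 and -0.07 for FANCI, beside a median of all genes of 0.01. FANCD2 was at 118 CPM with CB-5083 and 113 CPM with DMSO, a fold of 1.04 (0.992 to 1.09), and FANCI at 207 CPM with CB-5083 and 205 CPM with DMSO, a fold of 1.01 (0.976 to 1.05). The enzyme that takes the ubiquitin off again was not level: USP1 was at 368 CPM with CB-5083 and 172 CPM with DMSO, 2.14-fold higher (2.07 to 2.21). Its cofactor WDR48 was at 87.9 CPM with CB-5083 and 51.8 CPM with DMSO, 1.7-fold higher (1.59 to 1.8). UBE2T, the conjugating enzyme that works with FANCL, was at 96.5 CPM with CB-5083 and 89.0 CPM with DMSO. The log2 ratio of USP1 was 1.09, and 0.75 with library totals, so it passed 2-fold with TMM and not with library totals.

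**Figure D4:**
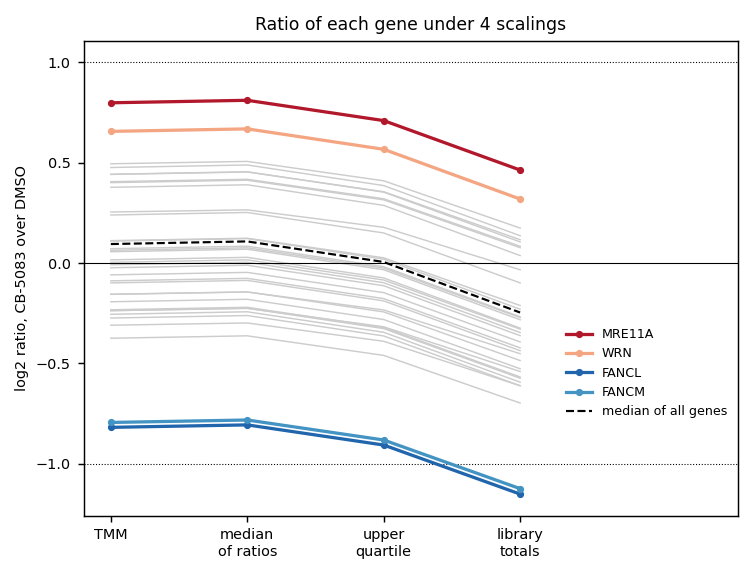
Log2 ratio of each of the 35 genes, CB-5083 over DMSO (vertical axis), under 4 ways of scaling the libraries (horizontal axis); grey lines are the other 31 genes, the dashed line is the median of all genes and dotted lines mark 2-fold. All lines shift together, the median of all genes lying at 0.09 with TMM and -0.25 with library totals, and FANCL and FANCM cross 2-fold lower with library totals.

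USP1 and WDR48 belong to a second list of 23 recombination and Fanconi genes outside the 35, of which 20 reached 5 CPM in at least 1 library and SLX4, C19orf40 and C17orf70 did not. Of the 20, USP1 was the only one 2-fold higher, against 7.22% of all genes, and 0 were 2-fold lower, against 4.91%. At 1.5-fold 4 (20%) were higher and 3 (15%) lower, against 17.4% and 12.5% of all genes. The median log2 ratio was 0.13. PSMC3IP, a cofactor of strand exchange, was next after USP1 and WDR48 at 39.5 CPM with CB-5083 and 25.7 CPM with DMSO, a log2 ratio of 0.60. The 3 lowest were nucleases that process branched or crosslinked DNA, though nuclease genes of this list did not all go that way. MUS81 was at 9.68 CPM with CB-5083 and 6.07 CPM with DMSO, 1.59-fold higher (1.32 to 1.92). ERCC1 was 1.19-fold higher (1.04 to 1.35), while EME1 was 1.39-fold lower (1.25 to 1.54). FAN1, a nuclease recruited by ubiquitinated FANCD2, was at 24 CPM with CB-5083 and 41.2 CPM with DMSO, 1.72-fold lower (1.57 to 1.89). ERCC4, the catalytic subunit that unhooks crosslinks, was at 12.5 CPM with CB-5083 and 20.6 CPM with DMSO, 1.65-fold lower (1.45 to 1.88). GEN1, a resolvase of crossed strands, was at 52.3 CPM with CB-5083 and 83.7 CPM with DMSO, 1.60-fold lower (1.5 to 1.7). With library totals FAN1, at -1.09 on the log2 scale, and GEN1, just past the threshold, were 2-fold lower, as were 10.3% of all genes.

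Chromatin ubiquitin signalling around RNF8 and the BRCA1-A complex gave 11 genes over 5 CPM of 12 listed, with a median log2 ratio of 0.00. With 1 CPM added, none was past 2-fold, 1 (9.09%) was higher at 1.5-fold and 0 were lower, against 17.4% and 12.5% of all genes. L3MBTL1, a chromatin protein that p97 is known to displace at breaks, was the gene below that level, at 2.15 CPM with CB-5083 and 4.55 CPM with DMSO. The highest was BRE, a scaffold of the BRCA1-A complex, at 37.6 CPM with CB-5083 and 24.5 CPM with DMSO, a log2 ratio of 0.59. RIF1, the effector of TP53BP1, was next at 220 CPM with CB-5083 and 155 CPM with DMSO, and UIMC1, the ubiquitin reader of BRCA1-A, was at 37.0 CPM with CB-5083 and 29.3 CPM with DMSO. The lowest were H2AFX, MDC1 and BRCC3. H2AFX, the histone phosphorylated at breaks, was at 16.8 CPM with CB-5083 and 25.5 CPM with DMSO, a log2 ratio of -0.58. Its fold without the added CPM was 1.52-fold lower (1.36 to 1.7). MDC1, the reader of H2AFX, had a log2 ratio of -0.42, and BRCC3, the deubiquitinase of BRCA1-A, one of -0.35.

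The 14 genes of the ATR checkpoint all reached 5 CPM and had a median log2 ratio of -0.01. With 1 CPM added, 1 gene was 2-fold higher, against 7.22% of all genes, and 0 were 2-fold lower, against 4.91%. At 1.5-fold 2 (14.3%) were higher and 0 lower, against 17.4% and 12.5% of all genes. RAD9A, a subunit of the clamp that activates ATR, was at 7.71 CPM with CB-5083 and 2.85 CPM with DMSO, 2.70-fold higher (2.11 to 3.48). Its log2 ratio was 1.18, and 0.90 with library totals. HUS1, another clamp subunit, was at 30.7 CPM with CB-5083 and 18.3 CPM with DMSO, and RAD17, which loads the clamp, at 90.7 CPM with CB-5083 and 68.5 CPM with DMSO. The lowest were ATRIP, the partner of ATR, at 8.83 CPM with CB-5083 and 13.5 CPM with DMSO, and CLSPN, the adaptor between ATR and CHEK1, at 56.3 CPM with CB-5083 and 79.6 CPM with DMSO. ATRIP was 1.53-fold lower (1.3 to 1.79) without the added CPM. RPA2, which coats single strands, had a log2 ratio of -0.33.

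End joining, the route that competes with recombination, had a median log2 ratio of 0.17 over 8 genes. None was 2-fold, and 1 (12.5%) was higher at 1.5-fold, against 17.4% of all genes. That gene was DCLRE1C, the nuclease Artemis, at 37.5 CPM with CB-5083 and 18.8 CPM with DMSO, a log2 ratio of 0.96. XRCC4, a scaffold of the ligase complex, was at 134 CPM with CB-5083 and 93.2 CPM with DMSO, and XRCC6, a Ku subunit that binds ends, had a log2 ratio of 0.25. The ligase LIG4 was lowest at 24.3 CPM with CB-5083 and 31.2 CPM with DMSO, and NHEJ1 and PARP1 followed with 0.02 and 0.05 on the log2 scale. Replication licensing was set beside these lists because its genes, like many recombination genes, are known to be cell-cycle regulated. Of its 8 genes, CDC6 alone was 2-fold higher, against 7.22% of all genes, at 689 CPM with CB-5083 and 196 CPM with DMSO. With 1 CPM added, MCM4 alone (12.5%, against 12.5% of all genes) was 1.5-fold lower, at 247 CPM with CB-5083 and 393 CPM with DMSO. MCM7 and MCM3, subunits of the replicative helicase, followed CDC6 with log2 ratios of 0.10 and -0.01. CDT1, which loads that helicase, and MCM6 followed MCM4 with -0.53 and -0.44. Without the added CPM, CDT1 was 1.54-fold lower (1.24 to 1.92). The median of that list was -0.11.

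**Figure D5:**
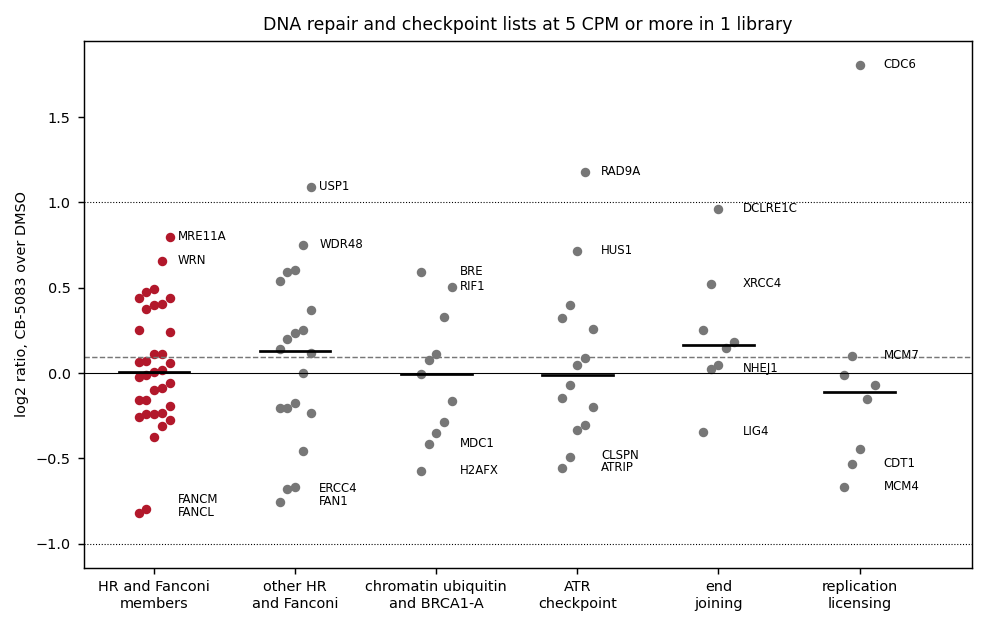
Log2 ratio, CB-5083 over DMSO, of each gene that reached 5 CPM in at least 1 library (points) in the 35 recombination and Fanconi genes and in 5 further lists; thick bars are list medians, the dashed line is the median of all genes and dotted lines mark 2-fold. No point of the 35 genes lies past a 2-fold line, and the points above the upper line are USP1, RAD9A and CDC6.

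Several values may hold reads of a neighbouring gene. The libraries were stranded, but the sources used here do not give whether counting used strand, and 8 of the 35 genes share bases on hg19 with another gene of at least 1 CPM. FANCL (chr2:58386378-58468515) shares 678 bases with VRK2, which was at 85.4 CPM with CB-5083 and 67.5 CPM with DMSO, higher where FANCL was lower. XRCC3 (chr14:104163954-104181823) shares 3935 bases with KLC1, which at 109 CPM with CB-5083 and 66.1 CPM with DMSO was far above it, so the level of XRCC3 is uncertain. FANCA (chr16:89803959-89883065) shares 3374 bases with ZNF276, at 5.48 CPM with CB-5083 and 11 CPM with DMSO. FANCI shares 827 bases with POLG, RAD54L 74 bases with LRRC41, and ATM, BRCA1 and RAD52 overlap genes of less than 5 CPM. MRE11A (chr11:94150469-94227040) and FANCM (chr14:45605136-45670093) share none with a gene of that level.

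Divergent gene pairs gave a further comparison, since 9 of the genes with a promoter entry start within 1000 bases of a gene on the other strand. The start of MRE11A lies 140 bases from that of ANKRD49, which was at 21.3 CPM with CB-5083 and 17.9 CPM with DMSO, a log2 ratio of 0.24 beside 0.80 for MRE11A. FANCB lies 352 bases from MOSPD2, at 32.2 CPM with CB-5083 and 15.4 CPM with DMSO, and both were higher, with log2 ratios of 0.49 and 1.02. BRCA1 was level while NBR1, 82 bases from an alternative BRCA1 start in RefSeq, was at 229 CPM with CB-5083 and 79.3 CPM with DMSO, 2.89-fold higher (2.76 to 3.03). TP53BP1 lies 314 bases from MAP1A, which went the other way at 0.352 CPM with CB-5083 and 2.97 CPM with DMSO. For ATM and NPAT the log2 ratios were 0.06 and 0.27, for PALB2 and DCTN5 0.00 and 0.32, for CHEK2 and HSCB -0.23 and -0.10, and for XRCC3 and ZFYVE21 -0.16 and -0.04.

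Promoter letters known from cell-cycle genes were looked for in windows of 250 bases before to 50 after the start, which RefSeq on GRCh38.p14 gave for 31 of the 35 genes. WRN, NBN, RAD54B and FANCI had no entry. A gene was counted when any of its windows held the motif, and genes that reached 5 CPM were matched by current symbol. An E2F-type motif (TTTCGCGC, TTTGGCGC, TTTCCCGC or TTTGCCGC on either strand) was in 5 of the 31 genes (16.1%), in 7.18% of the 6876 genes that reached 5 CPM and in 3.99% of all 27305 genes. Its core, the same letters without the first T, was in 16 (51.6%), 27.0% and 15.3%. CCAAT on either strand was in 15 of the 31 (48.4%), 44.5% and 39.7%, and the CHR motif TTTGAA in 3 (9.68%), 14.3% and 18.2%. The 30 bases around each E2F-type motif are shown because this motif is known from the promoters of many genes switched on before replication. All are from RefSeq on GRCh38.p14, 5′ to 3′ on the gene's strand, with the motif or its reverse complement in capitals: EXO1 at chr1:241848197-241848226 (plus), FANCD2 at chr3:10026424-10026453 (plus), XRCC2 at chr7:152676102-152676131 (minus), FANCC at chr9:95317863-95317892 and chr9:95317737-95317766 (minus) and FANCA at chr16:89816801-89816830 (minus).
EXO1: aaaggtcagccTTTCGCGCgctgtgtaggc
FANCD2: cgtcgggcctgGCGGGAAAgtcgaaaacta
XRCC2: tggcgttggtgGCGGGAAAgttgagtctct
FANCC, upstream: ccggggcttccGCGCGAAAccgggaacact
FANCC, nearer the start: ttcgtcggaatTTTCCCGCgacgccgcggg
FANCA: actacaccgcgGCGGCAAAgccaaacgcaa
Medians of genes with and without these letters lay close together. The 5 genes with an E2F-type motif had a median log2 ratio of -0.06 and the 26 without one a median of 0.00. With the core the medians were -0.04 over 16 genes with it and 0.06 over 15 without. With CCAAT they were -0.02 and 0.06, and FANCM and MRE11A, near opposite ends of the range, both held CCAAT on both strands. Across the 35 genes the log2 ratio was only weakly related to transcript length (Spearman's rho 0.13), to transcript GC content (-0.10) and to mean level (0.18), where all genes gave -0.04, -0.15 and 0.33. These correlations run across genes of the same pair of libraries and are descriptions.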

How the data were processed

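Polyadenylated RNA of 1 CB-5083 and 1 DMSO library was sequenced after a stranded preparation, per the labels' protocols. Quantification with RSEM 1.2.0 on hg19 is named in the submitters' processing notes. The sources used here give neither the aligner nor the strand setting of the counting. In the deposited tables each value is a signal: estimated counts that the authors scaled in each library to a 75th percentile near 1000, as the values show (999.888 with CB-5083, 999.73 with DMSO). Low values lay on steps of 1.17522 with CB-5083 and 1.07904 with DMSO, and dividing by the step gave estimated counts, and among values up to 5 steps 77.4% with CB-5083 and 76.5% with DMSO came out whole within 0.02. The plan of the comparison allowed for counts, recovered counts or the deposited unit.

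CPM used TMM factors of 0.888266 for CB-5083 and 1.12579 for DMSO (trims of 30% and 5%). The log2 ratio adds 1 CPM to each library before dividing CB-5083 by DMSO, which understates the difference of low genes. Counts of genes use those at 5 CPM or more in at least 1 library. A value of 0 allows up to 3 counts, 0.106 CPM with CB-5083 and 0.0910 CPM with DMSO. Intervals and these limits cover counting error only.

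Transcript lengths came from GENCODE release 29, matched through the RefSeq accessions in the files (35 of 35 genes). Sequences came from RefSeq tables. All 35 genes are named; of each further list, the 3 highest and 3 lowest ratios are, with others added where they bear on these. The genes and lists were chosen with earlier results of these data known. Alternatives changed the scaling, added CPM, filter, fold threshold and motif 1 at a time. The scripts were tested on simulated data. Scripts ran on Python 3.11.15 with scipy 1.17.1, pandas 2.3.3, numpy 2.4.6 and matplotlib 3.10.9.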

Additional observations from a re-analysis of the deposited data

How the results depend on the processing

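With library totals 0 of the 35 genes were 1.5-fold higher (8.34% of all genes), 6 were 1.5-fold lower (ATR, FANCC, FANCF, FANCL, FANCM and RAD51C; 26% of all genes) and 2 were 2-fold lower (FANCL and FANCM; 10.3% of all genes), and the median log2 ratio was -0.33, beside -0.25 for all genes. The genes that changed sign there were ATM, CHEK1, EXO1, FANCD2, FANCG, FANCI, PALB2, RAD50 and RAD51B. ATM, FANCD2, FANCI, PALB2 and RAD50 also changed sign with the upper quartile, and BLM did with median of ratios. With the upper quartile as deposited, 1 gene was 1.5-fold higher, MRE11A (14% of all genes), and WRN lay just under at 0.57. The median of the 35 genes minus that of all genes was -0.09 with TMM, between -0.08 and -0.09 with the other scalings, -0.12 with a filter of 10 CPM and 0.00 without a filter. Median-of-ratios scaling, an added 0.25 CPM or none, and a filter of 10 CPM or none left the counts of the 35 genes past 1.5-fold and 2-fold at the values reported, although a filter of 10 CPM kept 31 of them. Without a filter, 1957 of all genes were 1.5-fold lower in place of 1195. The shorter E2F core was in promoters of 16 genes in place of 5. A threshold of 3-fold left 0 past it. MRE11A, WRN, FANCL and FANCM kept their direction under every scaling run. No paired analysis was possible because each treatment had 1 library. Depth limits XRCC3, RAD51B, FANCE and FANCF most, which rested on fewer than 300 estimated counts in each library; the spread between cultures is unknown for every gene.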
